A study of Mus musculus with 13 samples.

Results

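A set of 10 genes of the fat cell programme was followed in UG26-1B6, a stromal cell clone that came from the urogenital ridge of a mid-gestation mouse embryo and that is used as a feeder layer for blood stem cells. They comprise 4 transcription factors of adipogenesis (Pparg, Cebpa, Cebpb and Cebpd), 3 proteins that bind or take up fatty acids (Fabp4, Fabp5 and Cd36), the secreted lipase Lpl, the lipid droplet coat protein Plin2 and the fat cell hormone Adipoq. Members were probe sets whose only platform symbol was one of these 10 genes, and where a gene had several, the one brightest on average over the 13 arrays was taken. Of the 19 probe sets of these genes, the 10 chosen in this way are described, and 8 of the 10 passed a filter on low values and entered a test with 12205 genes in all.

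The study compared stroma before contact with blood progenitors (day 0, 3 arrays) with stroma kept for 1, 2 or 3 days with LSK cells (3, 3 and 2 arrays) and with stroma 24 h after fresh medium alone (2 arrays). LSK cells are a bone marrow fraction without lineage markers that carries Sca-1 and c-Kit and holds the blood stem and progenitor cells. The stroma of the co-cultures was confluent and had received 30 Gy of irradiation before LSK cells were added, and the day 0 cells were harvested with trypsin. Whether day 0 and medium control stroma was irradiated, and whether LSK cells were removed before RNA was isolated, is not stated in the labels. All arrays come from this 1 clone. The titles name biological replicates and the design text technical ones, so every p-value below measures only the spread between these arrays, and the number of arrays limits the precision.

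In a developing fat cell, C/EBP-beta and C/EBP-delta appear early and switch on PPAR-gamma and C/EBP-alpha, which then maintain each other and the genes of mature fat cells. Those include the fatty acid chaperone FABP4, the scavenger receptor and fatty acid translocase CD36, lipoprotein lipase, which frees fatty acids from circulating lipoproteins, and adiponectin. Bone marrow stroma and fat cells share a mesenchymal precursor. FABP4, FABP5, CD36, LPL and PLIN2 are also made by macrophages, C/EBP-alpha by granulocyte and monocyte progenitors, and C/EBP-beta takes part in the response to inflammatory cytokines.

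The labelled cell type was borne out by 14 of 15 stromal marker genes above a log2 level of 5 on 12 of the arrays (9 of 15 on day 2 co-culture replicate 1). Blood cell RNA was present in the co-cultures. The log2 summed signal of 12 neutrophil and monocyte precursor genes reached 8.17 to 8.51 at day 0, 9.52 to 11.4 after 1 day, 12.2 to 15.6 after 2 days, 13.2 to 14.2 after 3 days of co-culture and 7.99 to 8.27 in medium controls. For 15 macrophage genes these ranges were 7.62 to 9.21, 8.70 to 10.9, 10.8 to 14.9, 11.9 to 13.2 and 7.42 to 7.43. Ptprc (CD45, the surface marker of blood cells) was at the lowest value on all 5 arrays without LSK cells. The mean log2 signal of 7 poly-A spike-in probe sets, RNAs added in fixed amounts before amplification, was 10.3 to 14.5 in co-cultures and 4.84 to 8.86 on the other arrays, with no overlap. Co-culture with LSK cells and a high spike-in signal therefore cannot be told apart. On day 2 replicate 1 and day 3 replicate 2 of the co-cultures, the Gapdh 3′ probe set exceeded the 5′ one by 8.96 and 5.79, against at most 3.82 on any other array. These 2 arrays are called 3′-biased below, and a member result whose call changes, or whose value moves by over 1.5 times, without both of them is given both ways.

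**Figure D1:**
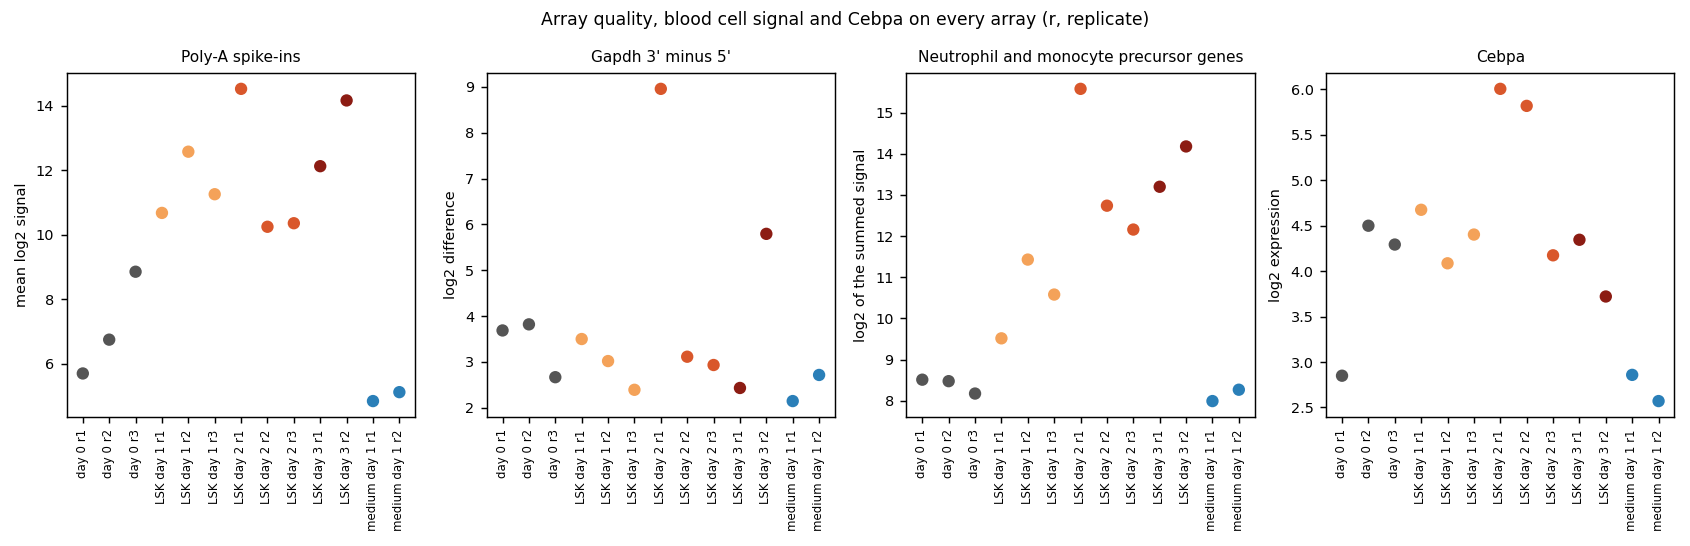
The 13 arrays are plotted along the horizontal axis for the mean log2 signal of the poly-A spike-ins, the Gapdh 3′ minus 5′ log2 difference, the log2 summed signal of the neutrophil and monocyte precursor genes, and the log2 level of Cebpa. All 8 co-culture arrays lie above all 5 others in spike-in and precursor signal, and day 2 replicate 1 is the highest array in all 4 panels.

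Of the 8 tested members, 3 passed the test in at least 1 comparison. Fabp4 was called higher than day 0 after 1, 2 and 3 days of co-culture, but not in medium controls. Its difference between day 1 co-cultures and medium controls was not called. Another Fabp4 probe set was called higher than day 0 in medium controls as well. Fabp5 was called higher than day 0 in medium controls and after 1 and 2 days of co-culture, but not after 3 days. Cebpb was called higher in day 1 co-cultures than in medium controls and at day 0, but not after 2 or 3 days against day 0. No tested member fell past the threshold, an adjusted p of 0.05 in a limma fit over all genes. A second Lpl probe set, outside that fit, was called lower than day 0 after 1 and 2 days of co-culture. Adipoq and Cd36 stayed near the lowest array values.

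**Figure D2:**
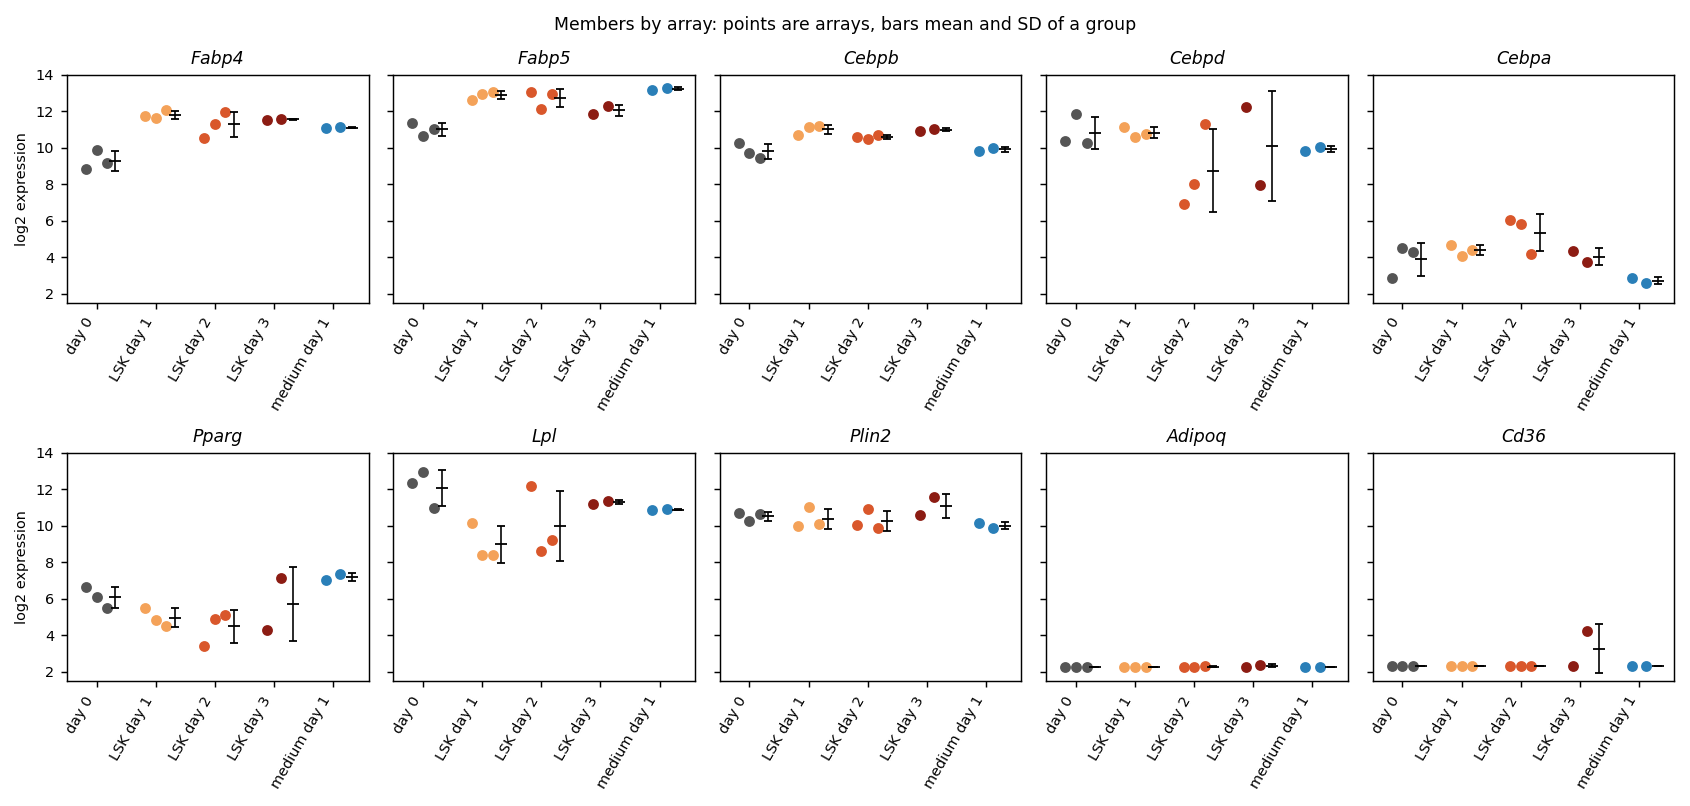
Each panel shows 1 gene, with the log2 level on the vertical axis, a point per array, and the mean with its SD beside each group. Fabp4 and Fabp5 lie above day 0 in every later group, Cebpb is highest in the co-cultures, and Adipoq stays at or under 2.40 on all 13 arrays.

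Fabp4 encodes the fatty acid binding protein of fat cells and macrophages. Its log2 level was 8.82, 9.87 and 9.13 on the day 0 arrays, 11.73, 11.61 and 12.03 after 1 day of co-culture, 10.54, 11.32 and 11.94 after 2 days, 11.52 and 11.57 after 3 days, and 11.10 on both medium control arrays. All 10 later arrays lay above all 3 day 0 arrays, an order that 1.42% of the genes tested shared. Day 1 co-cultures averaged 11.79 ± 0.22 and day 0 stroma 9.27 ± 0.54 (SD, n = 3 each), a 5.73-fold difference (log2 change 2.52 ± 0.36, standard error, adjusted p = 0.0127). After 2 days the change was 1.99 ± 0.36 (adjusted p = 0.0337), and after 3 days it was 2.27 ± 0.41 (adjusted p = 0.0422). Medium controls differed from day 0 by 1.83 ± 0.41, which missed the threshold (adjusted p = 0.138), but passed it without the 3′-biased arrays (adjusted p = 0.0374) and without day 2 replicate 1 alone (adjusted p = 0.0336). Day 1 co-cultures exceeded medium controls by 0.69 ± 0.41 (adjusted p = 0.399).

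These Fabp4 calls rest on few arrays. The day 1 call was lost without any 1 of the 3 day 1 arrays (log2 change 2.40 to 2.61, adjusted p = 0.0568 to 0.0829). The day 2 call was lost in 9 of the 13 fits that left out 1 array, namely any day 0, medium control or day 1 array or day 2 replicate 2 (1.77 to 2.29, adjusted p = 0.0623 to 0.094). The day 3 call was lost in 10 of 13, the exceptions being the 3 day 2 arrays (2.05 to 2.57, adjusted p = 0.08 to 0.141). Without both 3′-biased arrays the changes from day 0 were 2.36 ± 0.33 after 2 days (adjusted p = 0.022) and 2.25 ± 0.41 after 3 days (adjusted p = 0.0292), where day 3 rests on 1 day 3 array that is assumed to vary like the rest.

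Another Fabp4 probe set passed the filter and separated day 0 from all later arrays as well. Its log2 level was 6.94, 7.60 and 6.28 at day 0, 9.97, 10.21 and 10.50 after 1 day, 9.33, 9.20 and 10.51 after 2 days, 9.86 and 10.66 after 3 days of co-culture, and 10.14 and 10.04 in medium controls. It differed from day 0 by 3.28 ± 0.43 in day 1 co-cultures (adjusted p over all probe sets = 0.00828) and by 3.15 ± 0.48 in medium controls (adjusted p = 0.0168). Day 1 co-cultures and medium controls were 0.14 ± 0.48 apart on it. On this probe set the rise with fresh medium alone passed the threshold too. The other 2 Fabp4 probe sets stayed at or under 2.78 on every array.

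Fabp5, the epidermal and macrophage relative of Fabp4, was also lowest at day 0. It measured 11.35, 10.63 and 11.00 at day 0, 12.63, 12.95 and 13.04 after 1 day of co-culture, 13.06, 12.13 and 12.91 after 2 days, 11.83 and 12.26 after 3 days, and 13.17 and 13.28 in medium controls. Again all 10 later arrays lay above all 3 at day 0. The medium controls held the highest values of all arrays. Medium controls averaged 13.23 ± 0.074 (SD, n = 2) and day 0 stroma 10.99 ± 0.36 (SD, n = 3), a 4.70-fold difference (2.23 ± 0.32, adjusted p = 0.0286). The change from day 0 was 1.88 ± 0.29 after 1 day of co-culture (adjusted p = 0.0167), 1.71 ± 0.29 after 2 days (adjusted p = 0.0289) and 1.05 ± 0.32 after 3 days (adjusted p = 0.181). Day 1 co-cultures differed from medium controls by -0.35 ± 0.32 (adjusted p = 0.654).

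For Fabp5 a further probe set separated the 2 day 1 groups more. It read 7.58, 6.77 and 7.40 at day 0, 8.97, 9.18 and 9.58 after 1 day, 8.57, 7.82 and 9.48 after 2 days, 8.36 and 8.04 after 3 days of co-culture, and 10.56 and 10.61 in medium controls. Both medium control arrays lay about 1 log2 unit above the highest co-culture array. The difference of day 1 co-cultures from medium controls, -1.34 ± 0.44, missed the threshold (adjusted p over all probe sets = 0.104), while that of medium controls from day 0, 3.33 ± 0.44, passed it (adjusted p = 0.0101).

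The Fabp5 call between medium controls and day 0 was lost without day 0 replicate 2 or 3 or without any 1 of the medium control and day 1 co-culture arrays (2.05 to 2.29, adjusted p = 0.0593 to 0.274). The day 1 call was lost without day 0 replicate 2 or any day 1 array (1.70 to 2.00, adjusted p = 0.0525 to 0.1). The day 2 call was lost without the same day 0 replicates or any medium control or day 1 array (1.53 to 1.71, adjusted p = 0.0504 to 0.104). The direction was the same in each of these fits. Without both 3′-biased arrays the change after 2 days was 1.53 ± 0.29 (adjusted p = 0.0415).

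**Figure D3:**
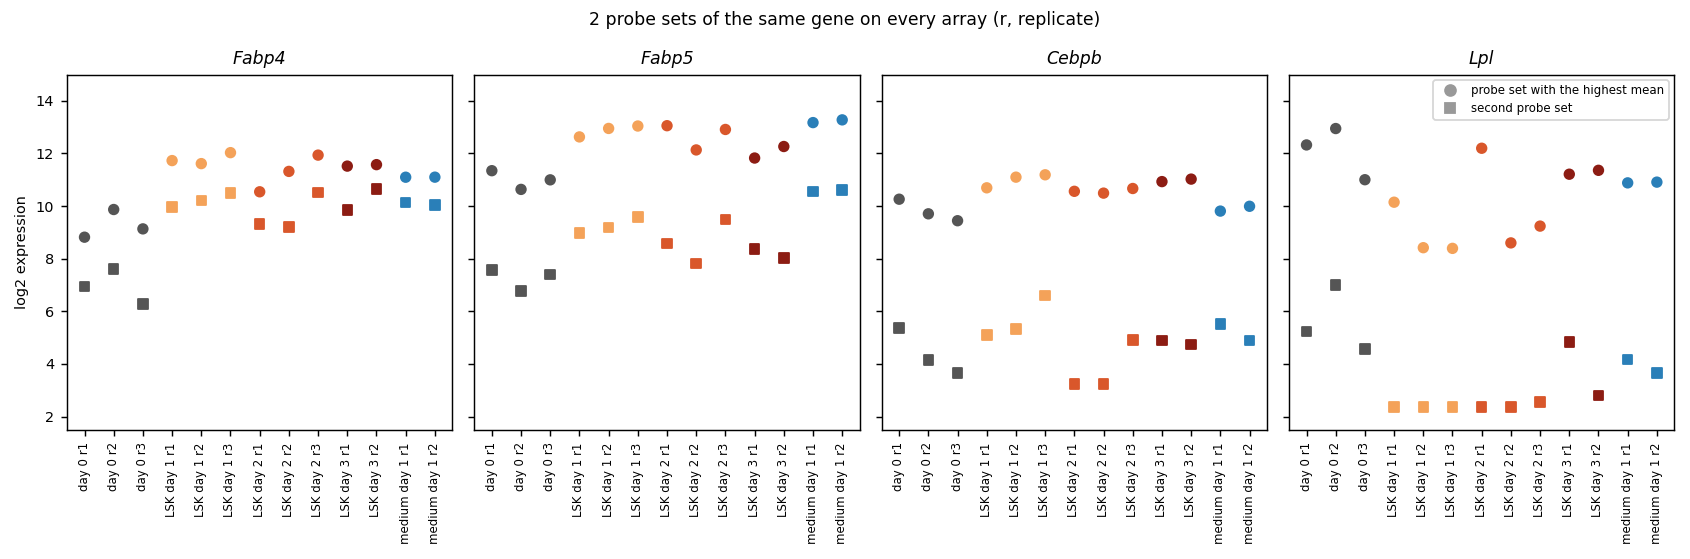
The log2 level of 2 probe sets per gene is drawn for every array, circles for the one with the highest mean and squares for the second. Both Fabp4 and both Fabp5 probe sets are higher in all later groups than at day 0, whereas the second Cebpb probe set is lowest in 2 of the day 2 co-cultures.

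The comparisons with day 0 share the same 3 arrays, so their values are given side by side and were not correlated. Across the 8 tested members, 3 were called in day 1 co-cultures against day 0 (2.15% of all genes were called, 0.828% as higher), 2 after 2 days (2.26%, 0.639% as higher), 1 after 3 days (0.819%, 0.352% as higher) and 1 in medium controls (0.328%, 0.221% as higher). All of these members were higher. The median change of the 8 members was 0.26, 0.26, 0.36 and -0.21 in that order, beside 0, -0.29, 0 and 0 for all genes tested. In bulk RNA, fewer cells of a type and less RNA per cell cannot be told apart.

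Cebpb, the early C/EBP factor of adipogenesis and a mediator of cytokine responses, had all co-culture arrays above all arrays without LSK cells. Its log2 level was 10.26, 9.71 and 9.44 at day 0, 10.69, 11.10 and 11.19 after 1 day of co-culture, 10.56, 10.49 and 10.67 after 2 days, 10.93 and 11.03 after 3 days, and 9.81 and 9.99 in medium controls. The lowest of the 8 co-culture arrays (10.49) lay above the highest of the other 5 (10.26), and 2.93% of all genes tested had this order. Day 1 co-cultures averaged 10.99 ± 0.26 (SD, n = 3) and medium controls 9.90 ± 0.13 (SD, n = 2), a 2.13-fold difference (1.09 ± 0.26, adjusted p = 0.0445). It was the 1 member called in this comparison, where 5.20% of all genes were called, 2.15% as higher and 3.05% as lower. Against day 0 the change was 1.19 ± 0.23 after 1 day (adjusted p = 0.0384), 0.77 ± 0.23 after 2 days (adjusted p = 0.0956) and 1.17 ± 0.26 after 3 days (adjusted p = 0.0805). Medium controls and day 0 stroma differed by 0.10 ± 0.26.

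The Cebpb call against medium controls was lost without any 1 of the 5 arrays compared, and without day 0 replicate 2 or either day 3 array (1.00 to 1.24, adjusted p = 0.0508 to 0.3). The call against day 0 was lost in 7 of 13 fits, those without day 0 replicate 2 or 3 or any medium control or day 1 array (1.01 to 1.34, adjusted p = 0.0718 to 0.163). Without both 3′-biased arrays the adjusted p was 0.0271 against medium controls and 0.0206 against day 0 after 1 day. The day 3 difference from day 0 passed the threshold without day 2 replicate 1 (adjusted p = 0.0289) and without day 0 replicate 1 (1.40 ± 0.23, adjusted p = 0.0492). The other Cebpb probe set ran from 3.23 to 6.60 and differed by 0.47 ± 0.67 between day 1 co-cultures and medium controls and by -0.60 ± 0.60 between day 2 co-cultures and day 0 stroma. The signal of blood cell genes and of the spike-ins was also higher in every co-culture array, and its part in the Cebpb difference was not tested.

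Because Cebpb is the member called between day 1 co-cultures and medium controls, its promoter is printed here, followed by that of Pparg, the factor that C/EBP proteins switch on. Each window holds the 250 bases before a RefSeq start site (GRCm38.p6, plus strand in both). In the Cebpb window, chr2:167688665-167688914, capitals mark the letters TGACG or their complement CGTCA, the core of the element bound by CREB proteins, which were found 180, 53 and 7 bases before the start site. In the Pparg window, chr6:115421816-115422065, at the last of its 3 annotated start sites, capitals mark TTGCNNAA on either strand, a C/EBP recognition pattern, found 215 and 16 bases before the start site.
Cebpb: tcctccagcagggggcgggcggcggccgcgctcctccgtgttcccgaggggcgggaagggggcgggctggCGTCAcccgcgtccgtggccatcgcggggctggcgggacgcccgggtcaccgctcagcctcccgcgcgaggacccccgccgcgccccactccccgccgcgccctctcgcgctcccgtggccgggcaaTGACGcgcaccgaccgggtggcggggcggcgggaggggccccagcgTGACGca
Pparg: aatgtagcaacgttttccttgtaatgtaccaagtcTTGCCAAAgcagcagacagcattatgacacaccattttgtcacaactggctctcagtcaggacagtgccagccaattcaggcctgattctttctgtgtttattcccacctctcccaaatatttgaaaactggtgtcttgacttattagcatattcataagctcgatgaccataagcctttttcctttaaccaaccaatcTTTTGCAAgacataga
The Cebpb window consisted of G and C for 81.6% of its bases and the Pparg window for 40.8%. Among 32851 windows of this length, 17.8% held TGACG and 9.56% held TTGCNNAA on either strand. The Pparg window was printed because it held TTGCNNAA, so its matches cannot be weighed against the share of all windows. Neither pattern occurred in the other Pparg windows or in those of Cebpa, Plin2, Cd36 and Adipoq, and the Cebpb window held no TTGCNNAA. The DR1 element, 2 copies of AGGTCA in 1 direction with a single base between them, of the kind that PPAR-gamma and RXR bind together, was in 0.0335% of windows and in none of the 8 windows of 6 members. A match of letters is a description and not evidence of binding.

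Pparg, the nuclear receptor at the centre of fat cell formation, had its highest group mean in medium controls. It read 6.64, 6.08 and 5.52 at day 0, 5.52, 4.85 and 4.51 after 1 day of co-culture, 3.44, 4.90 and 5.13 after 2 days, 4.29 and 7.17 after 3 days, and 7.03 and 7.36 in medium controls. All 3 day 1 co-culture arrays lay below both medium control arrays, while 62.5% of all genes did not overlap between these groups. The difference, -2.23 ± 0.80, missed the threshold (adjusted p = 0.144), but passed it without the 3′-biased arrays (adjusted p = 0.0114). The reading of 7.17 came from the 3′-biased day 3 array and the reading of 3.44 from the 3′-biased day 2 array. Against day 0 the change was -1.12 ± 0.72 after 1 day (adjusted p = 0.5), -1.59 ± 0.72 after 2 days (adjusted p = 0.193) and -0.35 ± 0.80 after 3 days (adjusted p = 0.962). Without the 3′-biased arrays the day 3 change, then from 1 array, was -1.79 ± 0.49 (adjusted p = 0.0838). Medium controls differed from day 0 by 1.11 ± 0.80 (adjusted p = 0.826).

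Cebpa, which acts with Pparg late in adipogenesis and also directs granulocyte and monocyte development, had its highest readings in 2 day 2 co-cultures. It measured 2.85, 4.50 and 4.29 at day 0, 4.67, 4.09 and 4.40 after 1 day of co-culture, 6.01, 5.82 and 4.17 after 2 days, 4.35 and 3.72 after 3 days, and 2.86 and 2.57 in medium controls. Day 1 co-cultures exceeded medium controls on every array, by 1.67 ± 0.61 (adjusted p = 0.152). Between these groups 62.5% of all genes did not overlap. The medium control readings lay close to the filter value of 2.38, so the size of this difference is not well resolved. Day 2 co-cultures exceeded day 0 stroma by 1.45 ± 0.55 (adjusted p = 0.145), by 2.03 without day 2 replicate 3 (adjusted p = 0.0142), and by 1.12 ± 0.62 without the 3′-biased arrays (adjusted p = 0.282). The day 3 change from day 0 was 0.15 ± 0.61, and 0.46 ± 0.78 without the 3′-biased arrays, neither of them called. The day 2 arrays with 6.01 and 5.82 had log2 precursor sums of 15.6 and 12.7, and the third day 2 array, at 4.17, had 12.2. The day 3 arrays had sums of 13.2 and 14.2 with Cebpa at 4.35 and 3.72. The part of blood cells in the Cebpa level was not tested.

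Cebpd, the partner of Cebpb in early adipogenesis, varied more within the later co-culture groups than between groups. It read 10.34, 11.82 and 10.25 at day 0, 11.15, 10.56 and 10.74 after 1 day of co-culture, 6.90, 8.01 and 11.31 after 2 days, 12.23 and 7.96 after 3 days, and 9.81 and 10.04 in medium controls. The arrays at 6.90 and 7.96 were the 3′-biased ones, while that at 8.01 had a Gapdh difference of 3.11. Day 2 co-cultures differed from day 0 by -2.06 ± 1.23 (adjusted p = 0.299), by -1.14 ± 0.92 without the 3′-biased arrays (adjusted p = 0.447), and by -3.35 without day 2 replicate 3 (adjusted p = 0.0474). Day 3 co-cultures differed from day 0 by -0.71 ± 1.38 (adjusted p = 0.938), and by 1.43 ± 1.17 without the 3′-biased arrays (adjusted p = 0.551), so the sign rested on 1 array.

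**Figure D4:**
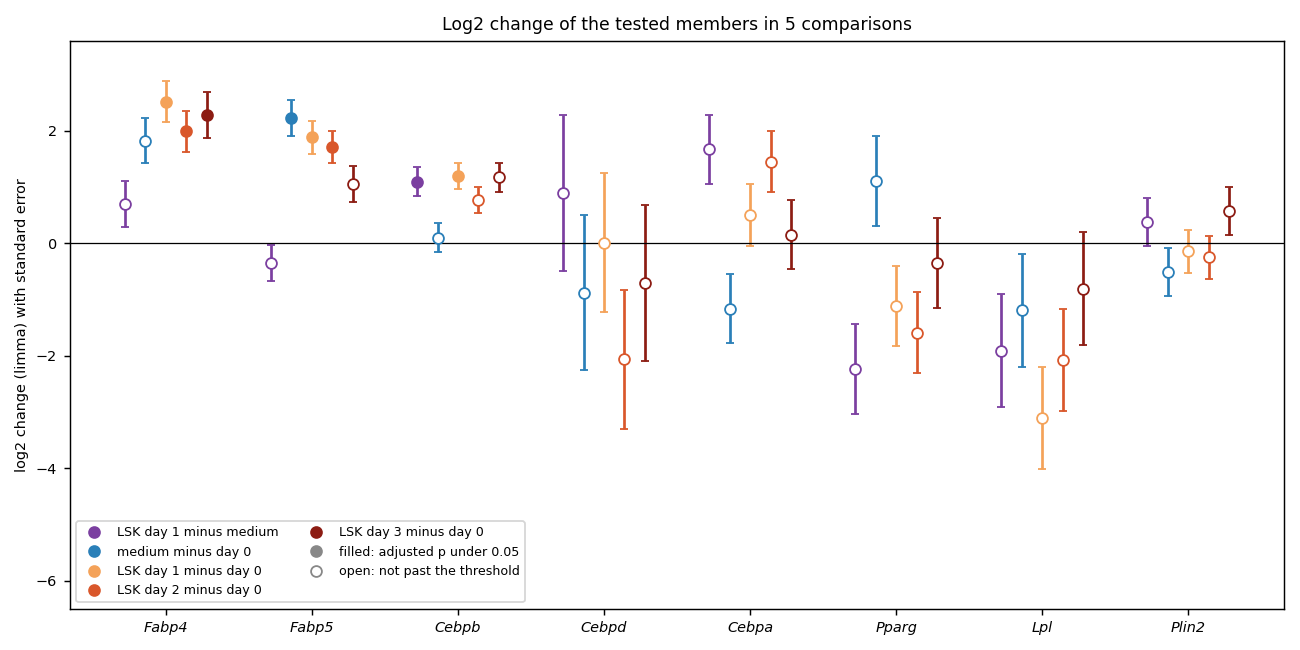
Log2 changes of the 8 tested members are drawn with their standard errors for 5 comparisons, filled where the adjusted p was under 0.05. Filled points are found for Fabp4, Fabp5 and Cebpb alone, all above 0, and the widest errors belong to Cebpd and Lpl.

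Lpl, the lipase that releases fatty acids from lipoproteins, was highest at day 0 and lowest in the day 1 and day 2 co-cultures. It measured 12.32, 12.95 and 11.00 at day 0, 10.15, 8.42 and 8.39 after 1 day of co-culture, 12.20, 8.60 and 9.24 after 2 days, 11.21 and 11.36 after 3 days, and 10.88 and 10.91 in medium controls. Every day 1 co-culture array lay below every day 0 and medium control array. Of all genes, 39.0% did not overlap between day 1 co-cultures and day 0, and 62.5% between day 1 co-cultures and medium controls. The change from day 0 at 1 day, -3.11 ± 0.90, was the largest of any member but missed the threshold (adjusted p = 0.111). Without day 2 replicate 1, the 3′-biased array that read 12.20, the same difference had an adjusted p of 0.0164, and that of day 2 co-cultures from day 0 was -3.17 ± 0.65 (adjusted p = 0.0475), against -2.08 ± 0.90 with it (adjusted p = 0.183). Without both 3′-biased arrays the day 1 difference was called (adjusted p = 0.0238) and the day 2 difference, again -3.17, was not (adjusted p = 0.0568). Day 2 replicate 1 also had the highest macrophage sum, 14.9. Macrophages express Lpl, and their part in its reading was not tested. On this same array the other Lpl probe set was at its own lowest value, 2.36. Day 1 co-cultures differed from medium controls by -1.91 ± 1.01 (adjusted p = 0.334).

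The other Lpl probe set was at its own lowest value, 2.36, on all 3 day 1 arrays and on day 2 replicates 1 and 2. At day 0 it read 5.24, 6.99 and 4.57. Its difference between day 1 co-cultures and day 0 stroma was therefore at least as large as the fitted -3.24 ± 0.63 (adjusted p over all probe sets = 0.0352). Its difference between day 2 co-cultures and day 0 stroma passed the threshold too (adjusted p over all probe sets = 0.039). On the third day 2 array the probe set read 2.56. The day 2 level was thus likewise not resolved from the lowest value, and no size is given. On day 3 it read 4.84 and 2.80, and in medium controls 4.16 and 3.65.

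Plin2, which coats lipid droplets in most cell types, stayed within a narrow band. Its log2 level ran from 10.24 to 10.69 at day 0, from 10.01 to 11.01 after 1 day of co-culture, from 9.87 to 10.92 after 2 days, from 10.62 to 11.57 after 3 days, and from 9.89 to 10.14 in medium controls. No comparison of Plin2 passed the threshold, and the estimates against day 0 ran from -0.51 ± 0.43 in medium controls to 0.57 ± 0.43 after 3 days. Without the 3′-biased arrays the change was 0.09 ± 0.50 after 3 days and -0.13 ± 0.40 after 2 days, against -0.25 ± 0.38 after 2 days with them.

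Adiponectin (Adipoq), the hormone of mature fat cells, was at or under 2.40 on all 13 arrays, where the lowest value of the deposited table was 2.28. Cd36 read 2.33 on 12 arrays and 4.24 on day 3 co-culture replicate 2, a 3′-biased array. Neither passed the filter. A different Cd36 probe set entered the gene fit because it reached 2.71 and 3.13 on single day 2 and day 3 arrays, and none of its differences was called. These readings give no level for the 2 genes and no fold.

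Between days of co-culture no tested member was called. After 2 days against 1 day, the change was -0.53 ± 0.36 for Fabp4, -0.17 ± 0.29 for Fabp5 and -0.42 ± 0.23 for Cebpb. Without the 3′-biased arrays it was -0.16 ± 0.33 for Fabp4 and -0.35 ± 0.29 for Fabp5. After 3 days against 1 day, it was -0.24 ± 0.41, -0.83 ± 0.32 and -0.02 ± 0.26 for the same genes, and 2.3 ± 1.0 for Lpl. In each of these comparisons 0.00819% of all genes were called by limma, 1 gene each, while 1541 and 357 genes had an unadjusted p under 0.05.

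The order of the group means was day 1 co-culture, day 3, day 2, medium control and day 0 for Fabp4, where day 3, day 2 and medium control neighbours overlapped. For Fabp5 it was medium control, day 1, day 2, day 3 and day 0, and the day 1, day 2 and day 3 neighbours overlapped. For Cebpb it was day 1, day 3, day 2, medium control and day 0, with overlap of the leading pair and of the last pair. Over the 13 arrays, the genes whose levels followed Fabp4 most closely by Pearson correlation were Trabd2b (0.914), Sphk1 (0.907) and Mt2 (0.903). Those nearest to Fabp5 were Srm (0.927), Rrp1b (0.905) and Slc25a5 (0.89), and those nearest to Cebpb were Abhd2 (0.934), Dctn1 (0.893) and Eif4ebp1 (0.892). These coefficients describe arrays that share groups and are given without a test.

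The wider pathway was read from 8 lists with 204 genes, of which 143 were measured. In day 1 co-cultures against medium controls, 3 of the 143 were called higher and 4 lower (4.9%, beside 5.20% of all genes). Against day 0, 4 were higher and 1 lower after 1 day (3.5%, beside 2.15% of all genes), 3 higher and 1 lower after 2 days (2.8%, beside 2.26%), and none was called after 3 days, where 0.819% of all genes were. In medium controls against day 0, 2 were higher and none lower (1.4%, beside 0.328%). Without the 3′-biased arrays, 14 were higher and 15 lower in day 1 co-cultures against medium controls, when 21.1% of all genes were called. Against day 0 the counts were then 11 higher and 14 lower after 1 day (13.6% of all genes), 6 and 2 after 2 days (3.46%), 6 and 6 after 3 days (5.65%), and 6 and 5 in medium controls (3.04%).

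**Figure D5:**
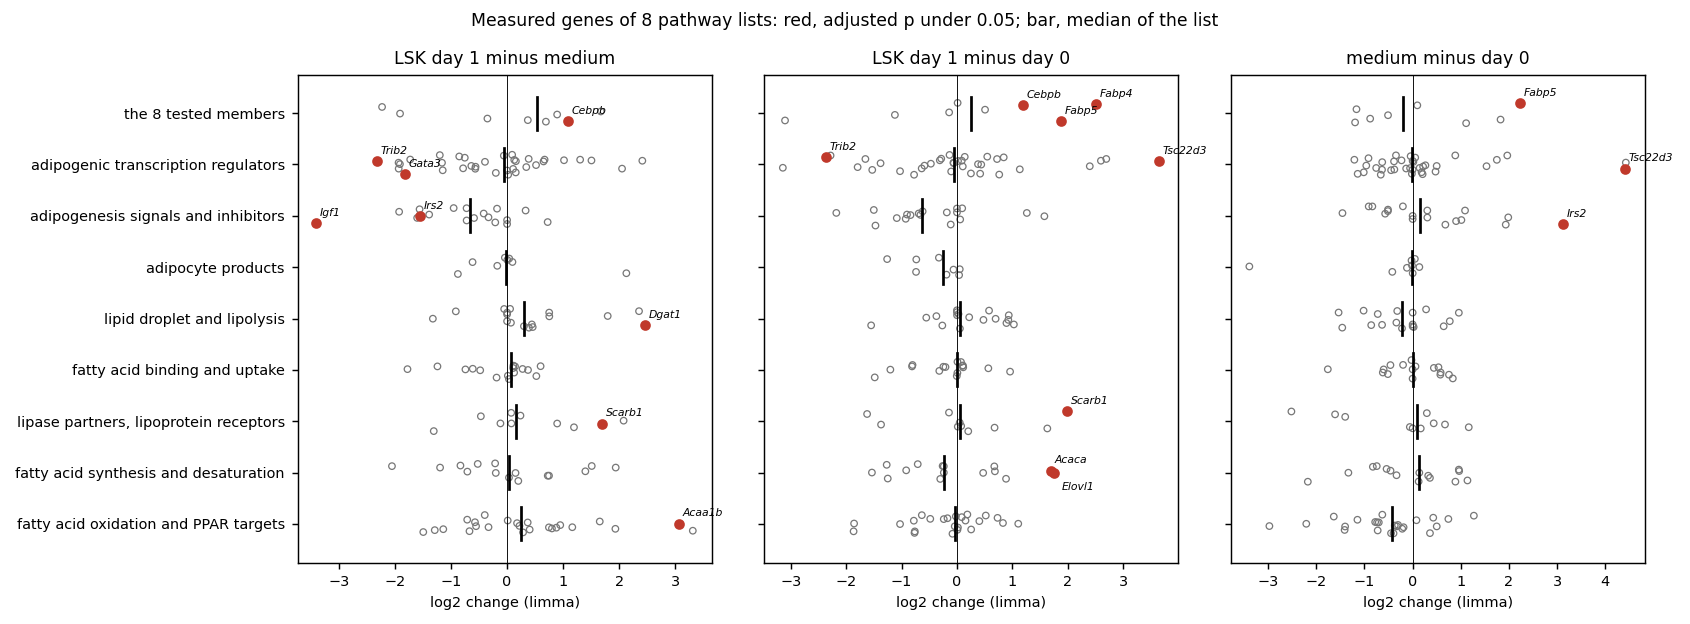
Log2 changes of the measured genes of the 8 lists and of the 8 tested members are drawn for 3 comparisons, with called genes in red and the median of each row as a bar. Called genes are few in the rows of the lists, while 3 of the 8 members are called in day 1 co-cultures against day 0. The median of signals and inhibitors in day 1 co-cultures against medium controls lies lowest, at -0.66.

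Among 35 measured transcription regulators of adipogenesis, none was called higher and 2 were called lower in day 1 co-cultures than in medium controls. In this comparison 2.15% of all genes were called higher and 3.05% lower. Trib2, a pseudokinase that promotes degradation of C/EBP-alpha, averaged 3.85 ± 0.038 in day 1 co-cultures (SD, n = 3) and 6.17 ± 0.049 in medium controls (SD, n = 2), a change of -2.32 ± 0.51 (adjusted p = 0.0359). It was also lower than at day 0 after 1 day (-2.37 ± 0.45, adjusted p = 0.0376) and after 2 days (-3.28 ± 0.45, adjusted p = 0.015). The Trib2 mean after 2 days was 2.94 ± 0.635 (SD), close to the lowest array values. The size of the day 2 change is therefore not well resolved. Gata3, a factor that restrains preadipocyte differentiation, read 5.37 on all 3 day 1 arrays, against 7.35 and 7.03 in medium controls (-1.82 ± 0.31, adjusted p = 0.0175), and this identical value also appeared on 3 further arrays. Its day 0 mean was 5.65 ± 0.35. From that mean, day 1 co-cultures differed by -0.28 ± 0.28 (adjusted p = 0.732) and medium controls by 1.53 ± 0.31 (adjusted p = 0.101). Tsc22d3, the glucocorticoid-induced leucine zipper GILZ, which represses Pparg transcription in mesenchymal cells, was higher than at day 0 in both day 1 groups. It averaged 11.92 ± 0.073 in medium controls (SD, n = 2) and 7.51 ± 0.40 at day 0 (SD, n = 3), a change of 4.41 ± 0.64 (adjusted p = 0.0289). In co-cultures its change from day 0 was 3.66 ± 0.57 after 1 day (adjusted p = 0.0195), 2.95 ± 0.57 after 2 days (adjusted p = 0.0389) and 3.35 ± 0.64 after 3 days (adjusted p = 0.0525).

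Of 18 measured signals and inhibitors of adipogenesis, none was called higher and 2 were called lower in day 1 co-cultures than in medium controls. Here too, 2.15% of all genes were called higher and 3.05% lower. The median change of the 18 genes was -0.66, beside 0.002 for all genes. Igf1, a growth factor that favours preadipocyte differentiation, averaged 4.38 ± 0.091 in day 1 co-cultures and 7.78 ± 0.15 in medium controls (-3.41 ± 0.79, adjusted p = 0.0427). Irs2, an adaptor of the insulin and IGF1 receptors, was lower in day 1 co-cultures than in medium controls (-1.55 ± 0.38, adjusted p = 0.0496). It was higher in medium controls than at day 0 (3.13 ± 0.38, adjusted p = 0.0164). The Irs2 mean at day 0 was 2.76 ± 0.83 (SD), close to the lowest array values. The size of its difference between medium controls and day 0 is therefore not well resolved. Sfrp1 and Dlk1, a Wnt antagonist and an inhibitor of preadipocyte differentiation, had day 2 changes from day 0 of -6.05 ± 1.70 and -4.05 ± 1.28 that missed the threshold (adjusted p = 0.0852 and 0.106). Their day 2 means were 6.37 ± 3.40 and 7.05 ± 2.99 (SD), a wide spread in the group that holds the 3′-biased replicate 1.

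None of 16 measured genes for fatty acid binding and uptake was called in any comparison, which covers other binding proteins, transporters and acyl-CoA synthetases. At most 5.20% of all genes were called in any comparison, so a count of 0 in a list this small does not set it apart. The median change of that list in day 1 co-cultures against day 0 was 0.002. None of 8 measured adipocyte products was called either. Sncg, gamma-synuclein, was the furthest apart among them, at 3.83 ± 0.27 in medium controls and 7.22 ± 2.00 at day 0 (-3.39 ± 1.15, adjusted p = 0.353).

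Lipid handling genes were called singly. Of all genes, 5.20% were called between day 1 co-cultures and medium controls. Dgat1, which catalyses the last step of triglyceride synthesis, averaged 9.99 ± 0.30 in day 1 co-cultures and 7.52 ± 0.34 in medium controls (2.46 ± 0.53, adjusted p = 0.0337) and was the 1 of 17 lipid droplet and lipolysis genes called there. Its mean at day 0 was 9.06 ± 0.41. Scarb1, the HDL receptor SR-BI, was the 1 called among 10 lipase partners and lipoprotein receptors. It read 9.68, 9.64 and 9.47 in day 1 co-cultures and 7.95 and 7.85 in medium controls (1.70 ± 0.32, adjusted p = 0.0247). Scarb1 was likewise above day 0 after 1 day (1.99 ± 0.29, adjusted p = 0.0127) and 2 days (1.71 ± 0.29, adjusted p = 0.0289), with 1.69 ± 0.32 after 3 days (adjusted p = 0.0523). Its probe set, like that of Elovl1 below, is of a type that can hybridise with other transcripts. Lrp8, a receptor for apolipoprotein E and reelin, was higher after 2 days than at day 0 (3.48 ± 0.65, adjusted p = 0.0352).

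Of 15 fatty acid synthesis and desaturation genes, Acaca, which makes malonyl-CoA, and Elovl1, which lengthens very long chain fatty acids, were higher in day 1 co-cultures than at day 0 (1.69 ± 0.36, adjusted p = 0.047, and 1.76 ± 0.38, adjusted p = 0.0497). In that comparison 2.15% of all genes were called. Of 24 measured fatty acid oxidation and PPAR target genes, 1 was called in day 1 co-cultures against medium controls, beside 5.20% of all genes. Acaa1b, a peroxisomal thiolase with a close relative in Acaa1a, averaged 10.57 ± 0.96 in day 1 co-cultures and 7.51 ± 0.021 in medium controls (3.06 ± 0.70, adjusted p = 0.0405), while its mean at day 0 was 10.48 ± 0.59. The 24 genes had a median change of 0.25 in day 1 co-cultures against medium controls and of -0.42 in medium controls against day 0, beside 0.002 and 0 for all genes.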

How the data were processed

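RNA of 13 samples was amplified and hybridised to Affymetrix mouse genome arrays. The authors deposited log2 values from 2.28 to 15.7, 1 for each probe set and array. The submitters' processing notes name both RMA and GCRMA and do not say which of them made the table. Of 45101 probe sets, 64 were controls and 34945 others had 1 gene symbol in the platform annotation. A probe set entered if it was above the pooled median of 2.38 on at least 2 arrays (21443 did), and the 1 with the highest mean stood for its gene (12205 genes). All arrays, grouped by title, entered 1 limma 3.58.1 fit (R 4.3.3, lmFit, contrasts, eBayes) with Benjamini-Hochberg adjustment over all genes and a threshold of 0.05. The fit was tested on simulated data. The fit did not pair arrays by replicate number. Same-number correlations of deviations ran from -0.371 to 0.261, which in groups of 2 or 3 arrays cannot show whether the numbers pair them.

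Members, lists and named genes were chosen with earlier results of these data known. Named were all members, of each list up to 3 called genes with the largest change per comparison (2 as values where none was called), the 3 marker genes per list highest in co-cultures, and the 3 genes most like each called member. Some of these are not printed. Alternatives changed the filter, scaling, probe set rule, variance model, weights, arrays fitted and replicate block, or left out each array. Promoter sequences are from RefSeq (GRCm38.p6), which held 6 of the 10 members, and figures were drawn with matplotlib 3.10.9.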

Additional observations from a re-analysis of the deposited data

Results flagged for a closer look

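These 4 member differences stood out because the change from day 0 differed between co-cultures and medium controls. The tested one was called by the fit. For the others, all arrays of the 2 groups moved in opposite directions from the day 0 mean. The share of all genes with this pattern is not given. Pparg and Cebpa also moved in opposite directions in day 1 co-cultures and medium controls, but these tested differences were not called and are not among the 4. Cebpb changed by 1.09 more in day 1 co-cultures than in medium controls, which is the tested difference between these groups (adjusted p = 0.0445). The other 3 differences were not tested. Pparg changed by -2.70 in day 2 co-cultures relative to medium controls, with every day 2 array below and every medium control array above the day 0 mean. Cebpa changed by 2.62 in day 2 co-cultures relative to medium controls, with the day 2 arrays above and the medium control arrays below that mean. Both groups overlapped the day 0 readings, which ran from 2.85 to 4.50. The higher medium control array read 2.86 and the lowest day 2 array 4.17. Plin2 changed by 1.08 in day 3 co-cultures relative to medium controls, again with the groups on opposite sides of the day 0 mean. Day 3 replicate 1 read 10.62, within the day 0 range of 10.24 to 10.69, and the other day 3 array is 3′-biased. Without the 3′-biased arrays the differences were 1.09 for Cebpb, -2.18 for Pparg, 2.28 for Cebpa and 0.60 for Plin2. The Plin2 value then comes from 1 day 3 array.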

How the results depend on the processing

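No member changed direction with a call under any alternative. The 12 alternatives other than leaving out 1 array include the fit of only the compared groups and that without both 3′-biased arrays. Of these, the Cebpb call was kept in 7 in day 1 co-cultures against day 0 and in 6 against medium controls. The Fabp4 call against day 0 was kept in 12, 9 and 8 on days 1, 2 and 3. The Fabp5 call was kept in 11 and 10 on days 1 and 2 and in 8 in medium controls. The Cebpb call against day 0 was lost with centring, the stricter filter, the mean of probe sets, a variance trend and the replicate block (adjusted p = 0.0609 to 0.229), and centring left 1 of the 3 members called there. The 1 member called against medium controls was lost (0 called) with the stricter filter, centring, the mean of a gene's probe sets, a variance trend and robust eBayes, while array weights and the fit of only the compared groups each called 5. Of medium controls against day 0, 0 members were called with the stricter filter, centring or only the compared groups, 2 with the mean of probe sets and 4 with array weights. In day 2 co-cultures against day 0, 1 was called with no filter and 0 with only the compared groups. In day 3 co-cultures against day 0, 0 were called with no filter, the stricter filter or only the compared groups. The replicate block, with numbers whose pairing the labels do not state, called 0 members in day 1 co-cultures against medium controls, in medium controls, day 2 and day 3 against day 0. Leaving out both 3′-biased arrays, chosen after seeing the data, called 2 in day 1 co-cultures against medium controls and 2 in medium controls against day 0. Leaving out 1 array gave 0 to 1, 0 to 2, 0 to 4, 0 to 4 and 0 to 2 members called in day 1 co-cultures against medium controls and in medium controls, day 1, day 2 and day 3 against day 0. The causes were not tested. Counts over all genes moved as well when 1 array was left out, from 7 to 2103 in day 1 co-cultures against medium controls (635 with all arrays), 8 to 166 (40) in medium controls against day 0, 9 to 1290 (263), 26 to 3497 (276) and 4 to 939 (100) on days 1, 2 and 3 against day 0, 0 to 1887 (1) on day 2 against day 1, and 0 to 106 (1) on day 3 against day 1. Readings near 2.28 give no level.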
